A study of Mus musculus with 28 samples.

Results

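Some SIRT7 ChIP-seq peaks stood alone in long stretches of the genome called unmarked here, after a chromatin state whose meaning the labels do not give. The regions described here, called lone far peaks, are the 636 peaks of the SIRT7 list for cells under the treatment GS on chromosomes 1 to 19 that lay in unmarked chromatin, had no other listed peak within 100 kb of their midpoint, and lay 50 kb or more from the nearest marked bin. They made up 23.8% of the 2671 peaks of that list and 28.0% of its 2272 autosomal peaks, and covered 891 kb. The series measured SIRT7, H3K27me3 and the histone variant macroH2A1.1 (mH2A1 in the sample names) by ChIP-seq. The cells were mouse embryonic fibroblasts (MEFs) of strain 129s2, described as 14.5 day cells and used at passages 3 to 4. The 28 libraries, 8 of them input, came from wild-type (WT) cells and cells lacking Sirt7 (SirT7-/-, KO), labelled NT or GS for treatment. The labels do not spell out either code, and the series title names glucose starvation. SIRT7 was measured in WT cells with 2 libraries for NT and 2 for GS, and the files hold 1 list of peaks per treatment. For H3K27me3 and mH2A1 there were 2 libraries each per genotype and treatment, from which the authors made 1 segmentation of the genome per condition, named here WT-NT and WT-GS for wild-type cells and KO-NT and KO-GS for those lacking Sirt7. Values given for all segmentations follow that order, and values for the 3 that did not choose the peaks follow the order WT-NT, KO-NT, KO-GS.

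SIRT7 is a sirtuin of the nucleus, an enzyme that removes acetyl groups from proteins at the cost of NAD, and is known for its enrichment in the nucleolus, its part in ribosomal RNA transcription and its action on acetylated histone H3. MacroH2A variants replace histone H2A in the nucleosome and carry a large macrodomain, which in the macroH2A1.1 splice form binds ADP-ribose. They are known from the inactive X chromosome and from broad silent domains, as is H3K27me3, the product of Polycomb repressive complex 2. Each segmentation gives 1 of 4 states, U1 to U4, to every 200 bp bin. No label used here says what each state stands for. U1 covers most of the genome and also the unassembled chromosome starts, which can hold no reads, so U1 includes sequence without signal. U2, U3 and U4 are called marked. Because each list and segmentation joins both replicates, the values that follow carry no replicate error, and their read depth is unknown. Wilson 95% intervals cover counting error alone, and the peaks of 1 list are not replicates, so no difference between groups of peaks was tested. No SIRT7 library of the series came from cells lacking Sirt7, so listed peaks that do not need SIRT7 could not be recognised.

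The GS list and the WT-GS segmentation chose these peaks, so their isolation and their distance from marks in WT-GS describe the choice and are no finding. Of the other autosomal GS peaks, 639 were as isolated and in U1 but nearer than 50 kb to marked sequence (called lone near peaks here), 666 lay in U1 with another peak within 100 kb (clustered peaks), and 331 lay in marked chromatin. The nearest marked bin in WT-GS was at a median of 178 kb, with quartiles of 90.3 and 362 kb and a highest value of 2472 kb. The nearest other GS peak was at a median of 345 kb, from 101 to 7527 kb, and was over 1 Mb away for 87 of the 636 peaks (13.7%). The limits cut through a continuum. Just inside the distance limit were peaks on chromosome 4 from 18167253 to 18168353 and chromosome 16 from 13375157 to 13375584, both 50.0 kb from a U2 bin, and just outside was a peak on chromosome 4 from 20304416 to 20304959, at 49.7 kb from a U2 bin. Just inside the isolation limit, 2 peaks on chromosome 8 starting at 61737707 and 61837494 were 100.7 kb apart, and just outside it, 2 clustered peaks on chromosome 11 starting at 108437339 and 108535850 were 98.9 kb apart.

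Lone far peaks lay on all 19 autosomes. Sequence 50 kb or more from marked bins of WT-GS amounted to 715 Mb, 29.6% of the autosomes after their unassembled starts, and held 0.889 lone far peaks per Mb. The mean of the 19 autosomal densities was 0.899 per Mb with an SD of 0.202, chromosome 8 being lowest (0.660) and chromosome 3 highest (1.38). Chromosome 1 held the most, 72 peaks, and chromosome 19 the fewest, 16, although those 16 were 40.0% of the GS peaks on chromosome 19, the highest share of any autosome. The lowest share was on chromosome 10, with 25 of 133 GS peaks (18.8%). Within 5 Mb of a chromosome start, a span that includes unassembled sequence, lay 9 of the peaks, and 15 lay within 5 Mb of an end.

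GS peaks of any isolation were denser deep in unmarked sequence of WT-GS. The values for lone far peaks beside them describe the choice, which used both isolation and this distance and removes peaks where they are dense. Autosomal GS peaks of any isolation had a density of 0.432 per Mb in marked sequence, 0.774 per Mb at 10 to 50 kb from it and 1.08 per Mb at 50 to 100 kb. Farther out it was 1.40 per Mb at 100 to 200 kb, 1.66 at 200 to 500 kb, 1.60 at 500 to 1000 kb and 2.02 beyond 1000 kb, so it did not rise at every step. They were also frequent within 10 kb of a border with marked sequence, at 1.27 per Mb. Lone far peaks stayed between 0.764 and 1.01 per Mb in all brackets from 50 kb outwards. Their share of the peaks in a bracket went from 73.8% at 50 to 100 kb (186 of 252) to 37.8% beyond 1000 kb (28 of 74), where most peaks had a neighbour within 100 kb. In all, 1012 GS peaks in U1 lay 50 kb or more from marks, and the 636 lone ones were 62.8% of them.

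**Figure D1:**
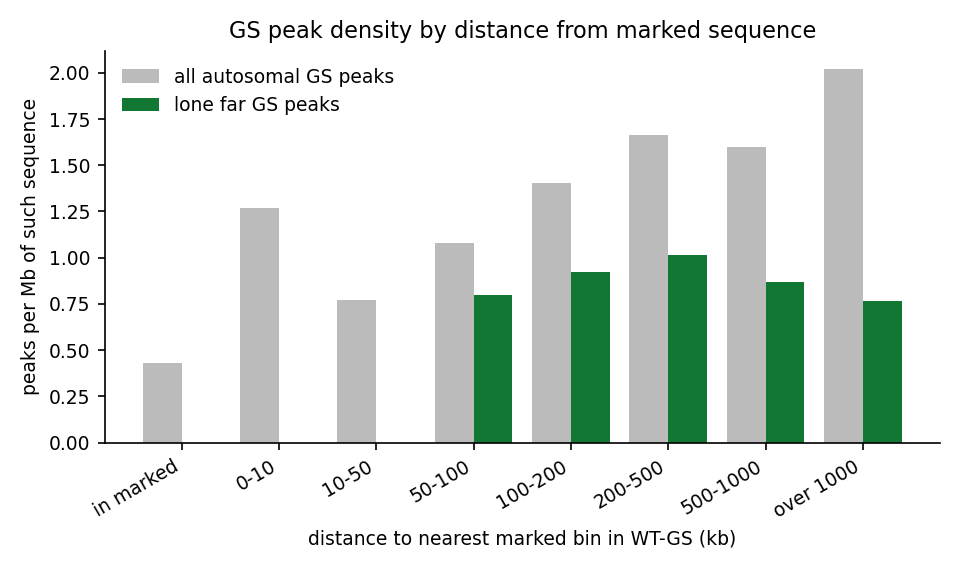
Peaks per Mb of autosomal sequence (vertical axis) in marked sequence and in brackets of distance to the nearest marked bin of WT-GS (kb, horizontal axis), for all autosomal GS peaks (grey) and for the lone far GS peaks (green). Grey bars reach 2.02 per Mb beyond 1000 kb, while green bars stay between 0.764 and 1.01; the green bars are absent under 50 kb because of how the peaks were chosen.

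The 636 peaks lay in 458 separate unmarked stretches of WT-GS, 340 of which held a single lone far peak. A further 118 stretches held 2 or more, 296 peaks together. The stretch around a peak had a median length of 751 kb in WT-GS and of 794, 822 and 820.2 kb in the other segmentations. The longest, on chromosome 7 from 7256201 to 13367600 (6111 kb), also held the most lone far peaks, 10, spread from 8149511 to 13106562. Those 10 were 767 to 3830 bp long, with scores from 540 to 808. The stretch included the 4 lone far peaks farthest from marks, starting at 10894966, 11096585, 11205614 and 11738984, at 2472, 2270, 2160 and 1628 kb in WT-GS. In WT-NT they were at 1700, 1498, 1388 and 856 kb, the KO-NT values were 2131, 1929, 1819 and 1287 kb, and those of KO-GS were 2158, 1956, 1846 and 1314 kb. All 4 were thus deepest in WT-GS, the segmentation used to choose them, and still over 850 kb from marked sequence in the other segmentations. The last of the 10, from 13105796 to 13106562, was 261 kb from a marked bin in WT-GS but 47.0, 44.8 and 47.0 kb in the other segmentations.

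Lone far peaks were mostly about 1 kb long and of low to middling score, much like the other classes of GS peaks. Their median length was 1103 bp (quartiles 753 and 1735 bp, range 255 to 7604 bp), beside 1220 bp for lone near peaks, 1286 bp for clustered peaks and 1055 bp for peaks in marked chromatin. The score, a whole number that the authors gave each peak and that serves here to rank peaks within the list, had a median of 626.5, beside 632, 630 and 628 in those 3 classes. Under 600 were 237 of the 636 (37.3%), and 16 reached 900 or more. The score quartiles were 577 and 703, beside 577.75 and 705 for all autosomal GS peaks, so low scores were no trait of the lone far peaks. Length and score were nearly unrelated over the peaks (Pearson r 0.131, Spearman rho 0.0800, n = 636, all from the same list). Of 51 peaks under 500 bp, 13 scored 700 or more, and of 49 over 3 kb also 13 did.

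**Figure D2:**
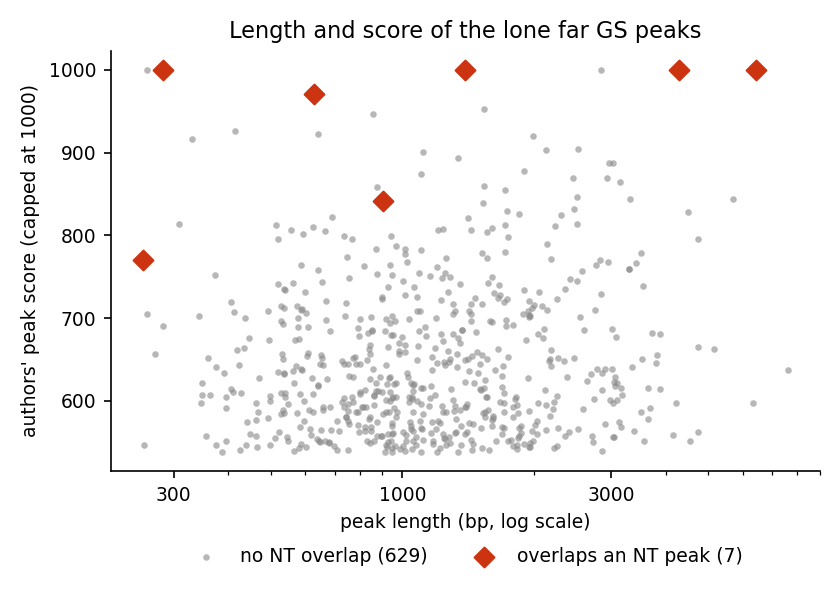
Each point is 1 of the 636 lone far GS peaks, with its length (bp, log scale, horizontal axis) and the authors' score (capped at 1000, vertical axis). Red diamonds mark the 7 peaks that overlap a peak of the NT list; they lie at scores from 770 to 1000 and at lengths from 255 to 6439 bp.

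The 5 longest included 2 on distal chromosome 4, a region known for clusters of zinc finger genes. One ran from 146356735 to 146364338 (7604 bp, score 637) and the other from 146696350 to 146702788 (6439 bp, score 1000). A lone far peak nearby, from 146084454 to 146088746 (4293 bp, score 1000), was long as well. The others of the 5 lay on chromosome 14 from 6594578 to 6600901 (6324 bp, score 597) and from 112744212 to 112749376 (5165 bp, score 662), and on chromosome 12 from 66453376 to 66459071 (5696 bp, score 844). Great length did not go with a high score throughout, since 3 of these 5 scored under 700.

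Nearly all lone far peaks were listed in GS alone, as were nearly all GS peaks of any class. The NT list held 90 peaks in all beside 2671 of the GS list, so few GS peaks could overlap one. An NT peak overlapped 7 of the 636 (1.10%, Wilson 95% interval 0.534 to 2.25%), beside 1.41% of all autosomal GS peaks and 1.27% of the whole GS list. Lone near peaks had 8 overlaps (1.25%), clustered peaks 9 (1.35%) and peaks in marked chromatin 8 (2.42%, interval 1.23 to 4.70%). The share of lone far peaks was thus near the background of the list. The 7 NT peaks were 12.1% of the 58 autosomal peaks of the NT list. All 7 overlapping peaks were among the 168 lone far peaks with a score of 700 or more, and at that score 4.85% of all autosomal GS peaks overlapped an NT peak. A further lone far peak had an NT peak within 100 kb but no overlap.

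Midpoints of the GS and NT peaks of the 7 were between 0.0120 and 0.999 kb apart. On chromosome 6 the GS peak from 10135892 to 10136518 (score 971) shared 609 bp, 97.1% of its length, with an NT peak from 10135886 to 10136500. The second peak of that chromosome, from 132413705 to 132413987 (283 bp), shared 274 bp with an NT peak and had the highest score, 1000, in both lists. On chromosome 4, the peaks starting at 146084454 and 146696350 shared 4250 bp (99.0%) and 5855 bp (90.9%) with NT peaks, so both were long in NT as well. On chromosome 3 the shortest of all lone far peaks, from 124931180 to 124931434 (255 bp, score 770), shared 208 bp. The peak on chromosome 12 from 120797803 to 120798704 (902 bp, score 841) lay wholly within an NT peak of 1475 bp. On chromosome 14 the GS peak from 111759314 to 111760705 (1392 bp, score 1000) was 51.3% covered by an NT peak of 714 bp that lay wholly inside it.

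Of the 10 lone far peaks with the highest score, 5 overlapped an NT peak and 5 did not. The latter were listed in GS alone, and for 2 of them the distances to marks in the 4 segmentations were nearly equal. On chromosome 5 from 71027457 to 71030301 (2845 bp, score 1000), marked sequence was 204, 457, 456 and 205 kb away, so WT-NT was like KO-GS and WT-GS like KO-NT. On chromosome 14 from 104736127 to 104736386 (260 bp, score 1000), it was between 109 and 114 kb away in all 4. For the peak on chromosome 3 from 159030068 to 159031608 (1541 bp, score 953), it was 225, 84.2, 84.2 and 273 kb away. The last 2 lay on chromosome 12 from 13379810 to 13380665 (score 947), at 105 to 106 kb, and on chromosome 19 from 40013386 to 40013799 (score 926), at 176 to 258 kb.

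The sequence under all but 2 of these peaks was unmarked in all 4 segmentations. In U1 were 635 of the 636 in WT-NT, all 636 in KO-NT, and 635 under GS in KO, and 634 (99.7%, Wilson 95% interval 98.9 to 99.9%) were U1 in all 4 segmentations with no marked bin under any part of the peak. For KO-NT the count of 0 marked peaks allows a share of up to 0.472% (3 counts of 636), and the Wilson 95% interval of its share in U1 runs from 99.4 to 100%. Sequence without regard to peaks was alike, since 99.6% of all bins 50 kb or more from marks in WT-GS were U1 in all 4, with 99.8, 99.8 and 99.9% in the separate segmentations. Of all autosomal GS peaks that were U1 in WT-GS, 93.7% were U1 in all 4, and of lone near peaks 86.9%. The 2 exceptions were U2 in 1 segmentation each. On chromosome 4 from 30127068 to 30127506 (439 bp, score 546) the peak was U2 in WT-NT, while its nearest marked bin elsewhere was 65.3 kb (WT-GS), 135 kb (KO-NT) and 204 kb (KO-GS) away. On chromosome 13 from 70144358 to 70144955 (598 bp, score 732) it was U2 in KO-GS, with marked sequence elsewhere 16.3 kb (WT-NT), 147 kb (WT-GS) and 162 kb (KO-NT) away.

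Most lone far peaks were also far from marked sequence in the segmentations that did not choose them. Nearest marked bins had medians of 180, 192 and 191 kb. It was 50 kb or more away for 586 peaks in WT-NT (92.1%) and for 606 in either KO segmentation (95.3% each). The corresponding shares of all sequence 50 kb or more from marks in WT-GS were 93.2, 95.1 and 95.4%. In all 4 segmentations 558 peaks were that far (87.7%, Wilson 95% interval 85.0 to 90.1%), beside 88.8% of the sequence, which lies within the interval. A share this near the background is not a result about the peaks.

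**Figure D3:**
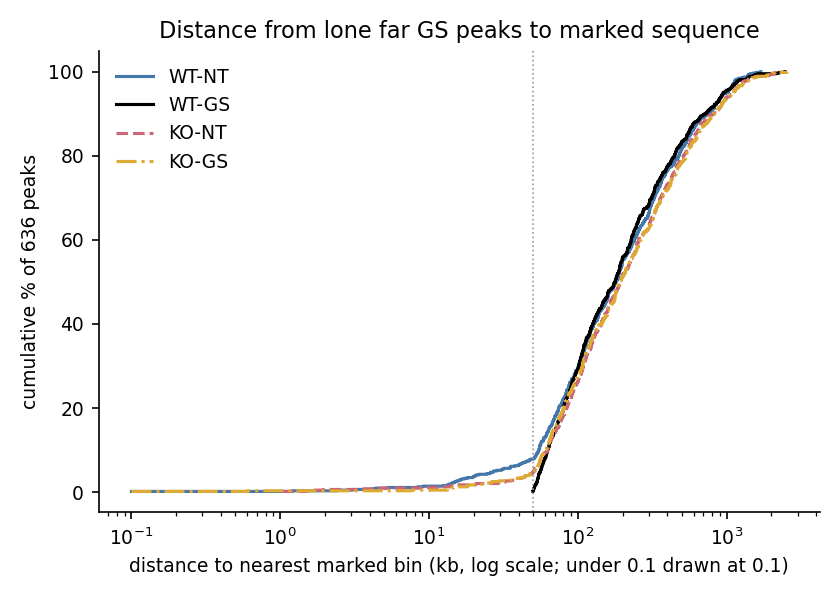
Cumulative percentage of the 636 lone far GS peaks (vertical axis) against the distance from the peak midpoint to the nearest marked bin (kb, log scale) in each of the 4 segmentations; the dotted line is the 50 kb limit applied in WT-GS. All 4 curves have medians between 178 and 192 kb, and 50 peaks in WT-NT and 30 in either KO segmentation fall left of the line.

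How far a peak lay from marks in WT-GS went with whether it was far elsewhere. Of the 186 peaks at 50 to 100 kb, 136 were 50 kb or more away in all 4 (73.1%, Wilson 95% interval 66.3 to 79.0%), beside 79.3% of sequence in that bracket, a value just above the interval. The difference was not tested. At 100 to 200 kb the share was 89.9% (152 of 169), beside 89.2% of sequence. At 200 to 500 kb it was 95.4% (167 of 175), beside 94.8%, and at 500 to 1000 kb 96.2% (75 of 78), beside 97.1%. All 28 peaks beyond 1000 kb were far in all 4 segmentations, beside 99.4% of sequence. By chromosome, all 32 peaks of chromosome 14 were far in all 4 and 17 of 25 (68.0%) on chromosome 12, while the sequence of these chromosomes gave 91.0 and 86.7%. With numbers this small, the spread of the peaks over chromosomes (SD 7.70 percentage points) was wider than that of the sequence (SD 2.66).

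Marked sequence came within 50 kb of 78 lone far peaks in at least 1 of the other segmentations. The most frequent pattern was a marked bin in WT-NT alone, with 28 peaks (4.40%, Wilson 95% interval 3.06 to 6.29%), beside 3.41% of the sequence. For KO-GS alone there were 14 (2.20%, beside 1.83% of the sequence) and for KO-NT alone 11 (1.73%, beside 1.94%). Both KO segmentations without WT-NT had 3 (0.472%, beside 0.605%). Both NT segmentations but neither GS segmentation had a marked bin near 9 peaks (1.42%, beside 1.27% of the sequence). A marked bin was near 6 peaks in WT-NT and KO-GS (0.943%, beside 1.07%) and near 7 in all 3 (1.10%, beside 1.06%). For each of these 7 patterns the share of the sequence lay within the interval of the peaks.

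**Figure D4:**
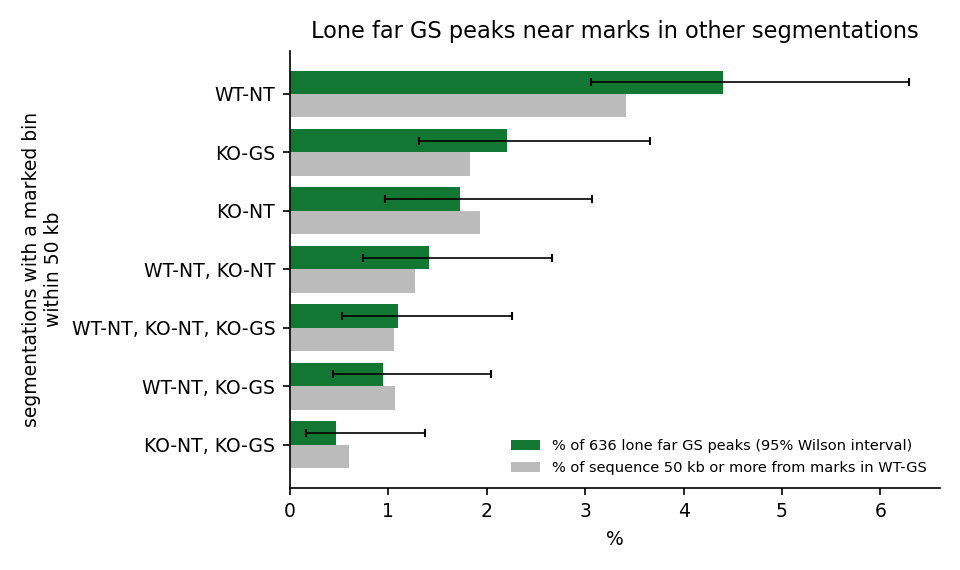
Percentage of the 636 lone far GS peaks (green, with Wilson 95% intervals) and of all autosomal sequence 50 kb or more from marks in WT-GS (grey) that had a marked bin within 50 kb in the segmentations named on the vertical axis and in no other. The grey bars lie within the green intervals in all 7 patterns; a marked bin in WT-NT alone is the most frequent, with 28 peaks.

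Little marked sequence came near either the peaks or the reference sequence, all bins 50 kb or more from marks in WT-GS. Over all 636 peaks, the marked sequence within 50 kb of the midpoint summed to 168, 80.4 and 69.0 kb, or 0.264, 0.126 and 0.108% of the sequence in those windows. In the reference sequence the marked share was 0.222% at 0 to 25 kb and 0.279% at 25 to 50 kb in WT-NT, beside 0.212 and 0.316% around the peaks. It was 0.179 and 0.210% in KO-NT, beside 0.100 and 0.152%, and 0.0930 and 0.129% in KO-GS, beside 0.0856 and 0.131%. By length, U2 was 89.2, 80.8 and 76.8% of the marked sequence around the peaks, U3 9.17, 18.2 and 20.9%, and U4 1.67, 0.995 and 2.32%. By peak, the nearest marked bin was U2 for 28 of the 50 peaks with marked sequence near in WT-NT and for 16 of 30 in either KO segmentation. A single peak supplied 26.4 of the 168 kb in WT-NT. Shares by state within 50 kb are not given for the reference sequence, so the frequency of U2 cannot be set against a background. Among the 50 peaks with a marked bin near in WT-NT, the median amount was 1.90 kb, and 16 had 1 kb or less. The medians were 2.20 kb for the 30 peaks in KO-NT and 1.70 kb for the 30 in KO-GS. Over 10 kb was found near 3 peaks in WT-NT, near 1 in KO-GS, and near 0 in KO-NT.

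The largest such amount lay beside a peak listed in both treatments. This was the peak on chromosome 12 from 120797803 to 120798704, with 26.4 kb of marked sequence within 50 kb in WT-NT, 8.20 kb in KO-NT and 0 kb under GS in either genotype. Its nearest marked bin, U2 in all 4, was 4.35 kb away in both NT segmentations, and 83.3 and 84.5 kb away in WT-GS and KO-GS. The amounts of marked sequence in NT thus differed between the genotypes, while the NT distances were equal and the GS distances close. A peak on chromosome 10 from 28619118 to 28619900 (783 bp, score 587) had the same order, with 37.7 and 44.5 kb under NT in WT and KO and 196 and 197 kb under GS. The last of the 3, on chromosome 10 from 111501087 to 111504442 (3356 bp, score 641), did not, with 17.4, 51.0, 96.2 and 21.0 kb. All 3 were chosen after their values were seen, for the amount of marked sequence in WT-NT.

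Outside WT-NT, 3 peaks with a marked bin near in WT-NT lay deep in unmarked sequence. On chromosome 3 from 112766128 to 112766836, the nearest marked bin was 20.7 kb away in WT-NT and 587, 590 and 583 kb elsewhere. For a peak on chromosome 5 from 62566147 to 62566685 the values were 25.8, 592, 513 and 592 kb, and for one on chromosome 7 from 55413316 to 55415369 they were 15.3, 551, 577 and 551 kb. The marked sequence concerned was short, with 2.4, 0.8 and 1.6 kb within 50 kb of these peaks. Near marks in both KO segmentations and in neither WT one were the peaks on chromosome 4 from 18167253 to 18168353 (38.6 kb in KO-NT and 0.603 kb in KO-GS) and from 96267815 to 96268660 (20.6 and 44.0 kb), and the peak on chromosome 19 from 49146103 to 49149186 (42.0 and 38.0 kb, with 12 kb of marked sequence in KO-GS). The peak starting at 18167253 was 199 kb from marks in WT-NT but 50.0 kb in WT-GS, so it barely passed the limit there. Within 100 kb it had 5 kb of marked sequence in WT-GS, beside 1.2 kb in KO-NT and 1 kb in KO-GS. These 6 were also chosen after their values were seen.

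Between the NT and GS segmentations, the distance to the nearest mark was greater in GS about as often as smaller. In WT, the distance in GS was over 10 kb greater than in NT for 153 peaks (24.1%) and over 10 kb smaller for 147 (23.1%), and within 10 kb for 336 (52.8%). Of the sequence 50 kb or more from marks in WT-GS, 19% was farther and 22.4% nearer in GS. In KO, 149 peaks were farther in GS than in NT and 139 nearer (23.4 and 21.9%, beside 20.1 and 18.7% of the sequence). WT-GS both chose the peaks and enters the WT comparison. In WT the distances of 336 peaks were within 10 kb of each other (interval 48.9 to 56.7%), beside 58.6% of the sequence, and in KO those of 348 (54.7%, interval 50.8 to 58.5%), beside 61.1%. The sequence thus kept its distance more often than the peaks did, with shares above the Wilson intervals of the peaks, which cover counting error alone. Peaks of 1 stretch share their marks, so they are not independent. The sequence is not matched to the peaks in isolation or in distance from marks, and this difference was not tested.

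In cells lacking Sirt7, the nearest mark was farther away more often than nearer. In NT, 208 peaks were over 10 kb farther from marks in KO than in WT (32.7%, Wilson 95% interval 29.2 to 36.4%) and 92 nearer (14.5%, interval 11.9 to 17.4%). In GS, 183 were farther in KO (28.8%) and 100 nearer (15.7%). The sequence went the same way, with 27.1% farther and 15.9% nearer in NT and 25.8% farther and 13.8% nearer in GS. The 27.1% lay below the interval of the peaks and the other shares within theirs, a difference that was not tested. Greater distances in KO were thus also the more frequent in sequence chosen without regard to peaks. That sequence and the peaks were both chosen by their distance in WT-GS, which enters the GS comparison. Whether the genotypes differ beyond the spread between cultures was not tested, because each condition is 1 segmentation.

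The mark nearest to a lone far peak was U2 or U3 in most cases, and which of them was nearest depended on the segmentation. From WT-NT to KO-GS, U2 was nearest for 323 (50.8%), 346 (54.4%), 298 (46.9%) and 272 (42.8%) of the peaks. U3 was nearest for 39.6, 39.3, 50.0 and 46.4%, and U4 for 9.59, 6.29, 3.14 and 10.8%. The sequence 50 kb or more from marks in WT-GS had U2 nearest for 52.2, 55.0, 48.0 and 45.5%. It had U3 nearest for 40.4, 39.5, 47.9 and 46.1% and U4 nearest for 7.42, 5.49, 4.06 and 8.48%. Peaks and sequence thus had the same order of segmentations for U2, for U3 and for U4.

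Beyond 50 kb, the flanks of lone far peaks held less marked sequence than those of all such sequence, in all 4 segmentations and out to 1000 kb. At 200 to 225 kb from the midpoint 9.75% of the sequence was marked in WT-GS, beside 13.1% around all sequence 50 kb or more from marks, and the pairs of the other segmentations were 9.15 and 12.7%, 7.68 and 10.9%, and 7.89 and 11.3%. At 975 to 1000 kb from the peaks the pair of WT-GS was 19.1 and 20.9%, and the others were 18.7 and 20.3%, 16.4 and 17.5%, and 16.2 and 18.1%. WT-GS chose both the peaks and the reference, and the difference was not tested. The reference had no limit on isolation and is not matched to the peaks in distance from marks. In the bracket of 50 to 100 kb it held 32.6% of its sequence and the peaks 29.2% of their number, and beyond 1000 kb 5.13 and 4.40%.

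**Figure D5:**
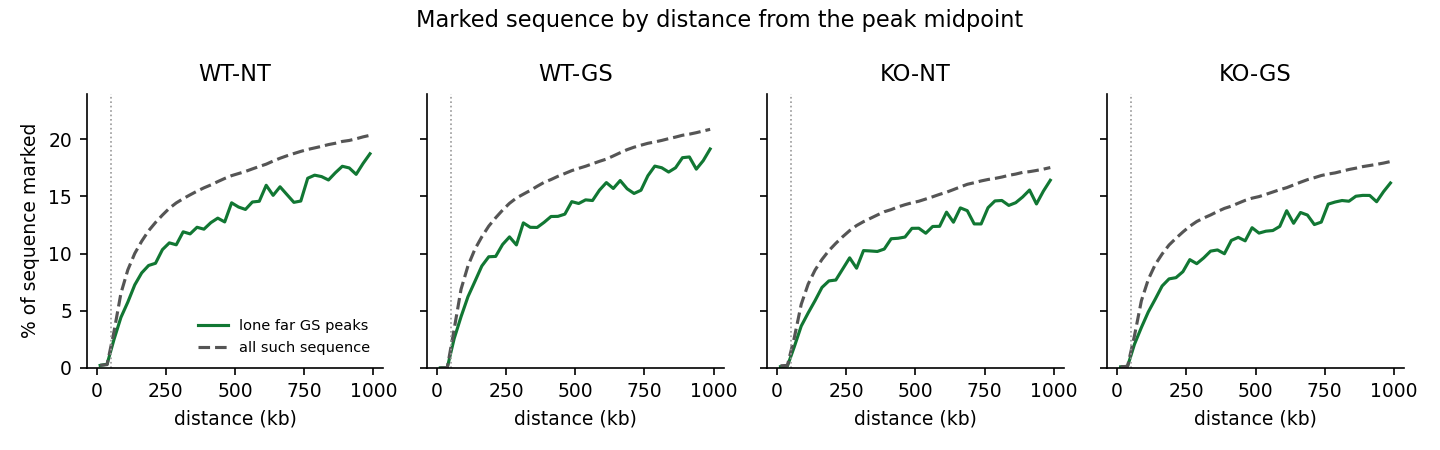
Percentage of sequence in a marked state (vertical axis) by distance from the midpoint (kb, in steps of 25 kb, both sides together), for the lone far GS peaks (green) and for all autosomal bins 50 kb or more from marks in WT-GS (grey, dashed), in the 4 segmentations. The green lines lie below the grey ones beyond 50 kb, for example 9.75 against 13.1% at 200 to 225 kb in WT-GS; the dotted line is the 50 kb limit.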

How the data were processed

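The authors' deposited files were 2 SIRT7 peak lists, each with a score per peak (a whole number capped at 1000, of unstated computation), and 4 segmentations with a state name per segment. Per the submitters' processing notes, the tools were MACS 1.4.2, Bowtie, deepTools 2.4.2, Trimmomatic 0.36, FastQC 0.11.3 and SAMtools 0.1.19, and mm9 and hg19 are the named builds, with no role for any. Per the labels, 1 list stands for both SIRT7 replicates and 1 segmentation for the H3K27me3 and mH2A1 replicates of a condition, so depth and replicate spread are unknown. Coordinates are counted from 1 and were taken to be mm9, the only mouse build named. No mm9 sequence or gene annotation was used here.

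Each peak was given the state of most of its length. Distances ran from the peak midpoint to the nearer edge of the nearest marked bin or to other midpoints, and overlap with NT required 1 bp. The reference was every autosomal bin after the initial 3 Mb that lay 50 kb or more from marks in WT-GS, taken at regular intervals for flanks and nearest states. Intervals are Wilson 95%. No tests were made. Named peaks were the 10 with the highest score, the 5 longest, the 5 farthest, those at the limits, those overlapping NT and those not U1 elsewhere, and others are named as chosen later. The peaks, lists and rules were chosen with earlier results of these data known. Distances, states and classes were tested on simulated data. Python 3.11.15, numpy 2.4.6, pandas 2.3.3 and scipy 1.17.1 were used.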

Additional observations from a re-analysis of the deposited data

How the results depend on the processing

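The number of lone far peaks was 379 when only the upper 50% of GS peaks by score entered the rule, and between 450 and 747 under the other alternatives for isolation, distance, short segments and peak edges and, as a choice made after seeing the data, with chromosome X. Shares of peaks far from marks moved with the limit. At 30 kb they were 94.8% in WT-NT, 97.8% in KO-NT, 97.3% in KO-GS and 92.3% in all 4 segmentations, and at 100 kb 70.4, 73.7, 72.5 and 60.4%. With marked segments under 1 kb dropped they were 94.7% in WT-NT, 96.9% in KO-GS and 91.0% in all 4. Among peaks over 1 kb long the shares in U1 in all 4, in WT-NT and in KO-GS were each 100%, as was that in WT-NT among the upper 50% by score. The share overlapping an NT peak was 2.23% among the upper 50% by score, beside 1.10% of all, and just inside its 95% interval. The other alternatives left shares, median length and median score within their 95% intervals. Base composition and repeats of the peaks were not run, since no mm9 sequence was used. No paired analysis was possible because each list and segmentation joins both replicates, which also left no replicate to leave out.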
